A study of Mus musculus with 6 samples.

Results

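The receptors for neuropeptides and gut peptides that act on feeding and on the stress response were examined in RNA-seq libraries of the lateral septum (LS), a forebrain region that sends inhibitory projections to the hypothalamus. The set held 10 genes named by symbol, namely the corticotropin-releasing hormone receptors Crhr1 and Crhr2, the oxytocin receptor Oxtr, the vasopressin receptors Avpr1a and Avpr1b, the GLP-1 receptor Glp1r, the melanocortin receptors Mc3r and Mc4r, the neuropeptide Y receptor Npy1r and the orexin receptor Hcrtr2. All 10 were found among the 35415 genes of the deposited tables, and 9 of them were among the 17255 genes with enough counts to be tested. Avpr1b was the exception.

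Both groups were wild-type (WT) female C57BL/6 mice. The olanzapine group received chow with olanzapine, an atypical antipsychotic, for 12 weeks, and the control group received standard chow. The septum was micro-dissected, RNA of 3 mice was pooled for each library, and 3 pools per group were sequenced, so that n = 3 is a number of pools and differences between single mice within a pool were not measured. The submitters named the olanzapine columns with a short form for metabolic syndrome.

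All 10 are G protein-coupled receptors on the cell surface. Crhr1, Crhr2, Glp1r, Mc3r and Mc4r raise cyclic AMP through the stimulatory G protein, Oxtr, Avpr1a, Avpr1b and Hcrtr2 mainly act through the Gq protein and phospholipase C, and Npy1r lowers cyclic AMP through the inhibitory G protein. In the brain, signals through Glp1r and Mc4r reduce food intake, neuropeptide Y and orexin promote feeding and arousal, and the LS is a known site of Crhr2, Oxtr and Avpr1a action in stress-related and social behavior.

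The start regions of 4 of the genes are printed because these genes lay farthest from their control means, in opposite directions, in olanzapine pool 1, which stood apart from the rest: Glp1r and Mc3r were low there and Crhr1 and Npy1r high. Start regions of 8 of the 10 receptor genes were searched. Avpr1b had no region, and Mc4r was left out. The regions came from RefSeq (GRCm38.p6) and ran from 250 bases before to 50 bases after the annotated start. They are printed 5′ to 3′ on the gene's strand, which is the plus strand for all 4, with every GC box (GGGCGG, searched on both strands) in capitals.
Glp1r, chr17:30901617-30901916: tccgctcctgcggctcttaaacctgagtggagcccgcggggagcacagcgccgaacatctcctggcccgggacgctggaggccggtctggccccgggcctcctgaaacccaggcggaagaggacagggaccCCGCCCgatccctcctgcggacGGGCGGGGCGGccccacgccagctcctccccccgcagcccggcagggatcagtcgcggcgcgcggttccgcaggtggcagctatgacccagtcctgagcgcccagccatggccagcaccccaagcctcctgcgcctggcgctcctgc
Mc3r, chr2:172248242-172248541: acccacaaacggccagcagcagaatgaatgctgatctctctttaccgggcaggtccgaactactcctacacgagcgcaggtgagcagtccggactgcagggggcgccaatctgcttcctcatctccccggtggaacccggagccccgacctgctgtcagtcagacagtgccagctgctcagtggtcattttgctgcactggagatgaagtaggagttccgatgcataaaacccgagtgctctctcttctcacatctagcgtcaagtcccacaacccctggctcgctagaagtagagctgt
Crhr1, chr11:104132531-104132830: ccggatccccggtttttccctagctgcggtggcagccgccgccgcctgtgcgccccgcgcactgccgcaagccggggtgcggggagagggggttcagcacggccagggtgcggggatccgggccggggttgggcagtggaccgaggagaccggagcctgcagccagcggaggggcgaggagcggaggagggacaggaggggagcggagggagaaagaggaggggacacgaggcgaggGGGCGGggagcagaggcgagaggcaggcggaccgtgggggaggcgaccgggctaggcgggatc
Npy1r, chr8:66697172-66697471: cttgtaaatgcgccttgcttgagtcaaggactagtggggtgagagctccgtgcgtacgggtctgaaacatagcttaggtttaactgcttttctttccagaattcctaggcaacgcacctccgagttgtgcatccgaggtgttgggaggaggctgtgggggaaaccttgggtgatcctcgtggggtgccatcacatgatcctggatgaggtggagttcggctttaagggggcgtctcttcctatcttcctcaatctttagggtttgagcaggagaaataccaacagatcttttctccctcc

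The 4 regions did not divide by base composition the way the genes did in that pool. Glp1r had a GC content of 73.7% and Crhr1 one of 75.0%, against a median of 52.7% over 32851 start regions of the same length, while Mc3r had 57.0% and Npy1r 51.7%. The GC box was found in 3 of the 8 regions searched and in 35.7% of all regions. It occurred 3 times in Glp1r, where 2 of the matches overlap, and it was also found in Crhr1 and Oxtr. A TATA box (TATAAA) was found in Crhr2 and Avpr1a, 2 of the 8, and in 13.6% of all regions. The cAMP response element (TGACGTCA) was found in 0 of the 8 and in 1.79% of all regions. The E-box (CACGTG) was found in 1 of the 8, Oxtr, directly after its GC box, and in 7.15% of all regions. These counts describe letters only.

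The libraries held between 38208153 and 39868872 gene counts, so depth differed little between pools. Olanzapine pool 1 stood apart from the other 5. Slc17a7, the vesicular glutamate transporter of cortical and hippocampal neurons, had 24973 counts in it and at most 2171 in any other pool, which is 12.0 times the highest other level after scaling to library size (CPM). The summed level of a 6-gene cortical glutamatergic marker list was 1647 CPM there (counts scaled to a fixed library size after TMM normalization), against 329 to 383 CPM with standard chow and 448 to 466 CPM in the other olanzapine pools. The last difference came from 1 gene of the list, Nrgn, named after its values were seen. The other 5 genes summed to 44.7 to 91.7 CPM with standard chow, to 872 CPM in olanzapine pool 1 and to 34.0 and 27.0 CPM in olanzapine pools 2 and 3. All 11 genes of an LS neuron list, among them the septal transcription factor gene Zic1, were detected, and their summed level was 2739 to 3418 CPM in the control group and 2264 to 3036 CPM in the olanzapine group. The summed level of a 6-gene medial septum list was lower in every olanzapine pool, at 89.3 to 146 CPM against 157 to 177 CPM, with 0 of its 6 genes called (1.01% of all tested genes), 1 lower without overlap (11.0% of all tested genes) and none at 0 in all pools. That gene, Slc17a6, named after its values were seen, carried the difference. The other 5 genes summed to 55.1 to 93.6 CPM with standard chow and to 55.8 to 72.4 CPM with olanzapine, which overlap. The part of this list in the lower receptor values was not tested. A choroid plexus list varied from 65.6 to 7460 CPM without separating the groups. Of the 12 marker lists, only that of hepatocytes held called genes: Alb, Apoa1, Apoa2, Serpina1a, Fgb, Ahsg and Hnf4a, 7 of its 8, were higher in the olanzapine group. In bulk tissue, fewer cells of a type and less RNA per cell cannot be told apart.

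The receptor genes were expressed at low to moderate levels in the LS. On the FPKM scale, which divides by gene length, the mean control levels in descending order were 8.79 for Glp1r, 3.76 for Crhr2, 2.74 for Npy1r, 2.32 for Mc3r, 2.09 for both Oxtr and Avpr1a, 1.18 for Hcrtr2, 1.09 for Mc4r and 1.03 for Crhr1. Among all tested genes the control level of Glp1r had a percentile of 65.6 and that of Crhr1 one of 27.1. Neighbors in this order had overlapping control pools for Mc3r and Oxtr, for Oxtr and Avpr1a, for Hcrtr2 and Mc4r and for Mc4r and Crhr1. In the olanzapine group the means were 4.97 for Glp1r, 3.21 for Npy1r, 3.09 for Crhr2, 1.77 for Avpr1a, 1.67 for Oxtr, 1.59 for Mc3r, 1.50 for Crhr1, 0.926 for Mc4r and 0.875 for Hcrtr2, and only the steps from Crhr2 to Avpr1a and from Hcrtr2 to Avpr1b separated neighboring genes. The order rests on the lengths behind the deposited values. The deposited FPKM of Glp1r implied a length of 1480 bases where the GENCODE exons of GRCm38 cover 5811, and that of Crhr1 implied 8103 bases where they cover 2460, so the places of Glp1r as the highest and of Crhr1 as the lowest of the 9 depend on the gene models. Avpr1b, the vasopressin receptor known mainly from pituitary corticotrophs and hippocampal area CA2, had 1 count in control pool 3 and 0 in the other 5 pools. A count of 0 still allows up to 3 counts in a library, by counting error alone.

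No receptor gene differed between the groups by the criterion for a differentially expressed gene, an adjusted p under 0.05 in edgeR's quasi-likelihood test with more than a 2-fold change. The count was 0 of 9, where 1.01% of all tested genes were called. Without the limit on fold change it was again 0 of 9, where 2.32% were called, and the smallest adjusted p was 0.186 for Glp1r. At an unadjusted p under 0.05 it was 1 of 9, Glp1r, which was lower, and 8.40% of all tested genes were lower by that measure. DESeq2 called 0 of 9 with the fold limit, where it called 1.72% of all tested genes, and 1 of 9, Glp1r, without it, where it called 6.69%. Of the 9, 7 had a negative log2 fold change, with a median of -0.31, while 49.3% of all tested genes were negative and their median was 0.00. The LS neuron list lay on the same side by a similar amount, with 9 of its 11 genes negative, a median of -0.33 and 0 called. Its part in the receptor values was not tested beyond dividing the receptor levels by it, as given with Glp1r. In 3 of the 9, Glp1r, Mc3r and Hcrtr2, every olanzapine pool lay below every control pool, and 11.0% of all tested genes were arranged so. None of the 9 had every olanzapine pool above every control pool, an arrangement found in 13.3% of all tested genes.

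**Figure D1:**
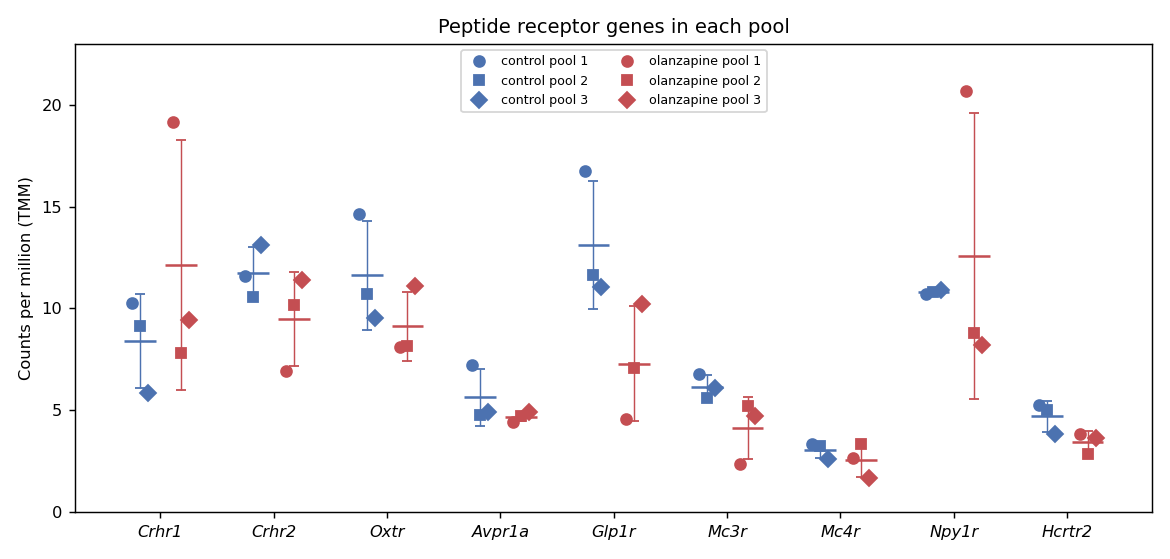
CPM after TMM normalization (vertical axis) of the 9 tested receptor genes in the 3 control pools (blue) and the 3 olanzapine pools (red). Horizontal lines are group means and error bars are SD (n = 3). The groups separate for Glp1r, Mc3r and Hcrtr2, and olanzapine pool 1 is the highest point for Crhr1 and Npy1r.

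Glp1r and Mc3r, receptors of peptides that reduce food intake or act on energy balance, had the largest negative values of the 9 with all pools, and Mc4r overlapped between the groups. Glp1r, the receptor of the satiety peptide GLP-1 and of drugs such as exendin-4 (chromosome 17, 30901817 to 30940791, plus strand, 13 exon blocks in GENCODE), had counts of 655, 460 and 435 with standard chow (pools 1 to 3) and of 173, 280 and 397 with olanzapine. Every olanzapine pool was below the lowest control pool, by little for olanzapine pool 3. The mean was 13.1 ± 3.14 CPM in the control group and 7.29 ± 2.83 CPM in the olanzapine group (SD, n = 3), a log2 fold change of -0.85 ± 0.29 (SE) with a 95% interval of -1.52 to -0.18 and an edgeR adjusted p of 0.186. DESeq2 gave -0.86 with an adjusted p of 0.0412. Without olanzapine pool 1 the edgeR value was -0.60, with an adjusted p of 0.199. The groups overlapped neither with nor without that pool.

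Glp1r also kept its separation when divided by the LS marker list. Divided by the summed level of the LS marker list, which was chosen after the values were seen, it stood at 4.90, 3.85 and 4.03 per 1000 with standard chow and at 2.02, 2.74 and 3.37 with olanzapine. The log2 difference was -0.68, and the two-sided exact permutation test gave p = 0.1, which is the smallest that 3 pools against 3 allow, and 0.9 after adjustment over the 9 genes. On this scale the groups of the other 8 genes overlapped, those of Mc3r at -0.44 and of Hcrtr2 at -0.23 included. Of all tested genes, 11.0% were lower without overlap in CPM, and their share on this scale was not computed. The divisor also holds Gad1, Gad2 and Slc32a1, with control means of 728, 772 and 372 CPM, which are not particular to the septum. A 7-gene striatal list summed to 858 to 1476 CPM with standard chow and to 888, 1816 and 1715 CPM with olanzapine. The part of striatal RNA in this ratio was not tested.

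Mc3r, a melanocortin receptor that takes part in energy balance and nutrient partitioning (chromosome 2, 172248492 to 172251114, plus strand, 1 exon), had counts of 265, 221 and 240 with standard chow and of 90, 206 and 184 with olanzapine. The first olanzapine pool was far below all others, and the other 2 lay just under the control range. The mean was 6.15 ± 0.60 CPM in the control group and 4.11 ± 1.52 CPM in the olanzapine group, with a log2 fold change of -0.58 ± 0.28 (95% interval -1.23 to 0.07, edgeR adjusted p = 0.335). Without olanzapine pool 1 it was -0.31 (edgeR adjusted p = 0.382), closer to 0 than Glp1r, Hcrtr2 and Npy1r in that comparison.

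Mc4r, the melanocortin receptor whose loss causes obesity, is a single-exon gene. Its counts were 130, 128 and 103 with standard chow and 100, 132 and 65 with olanzapine, so that olanzapine pool 2 was the highest of all 6 and olanzapine pool 3 the lowest. The log2 fold change of -0.26 ± 0.28 had an interval of -0.91 to 0.38 (edgeR adjusted p = 0.680), which leaves room for a decrease of the size seen in Mc3r as well as for an increase. The value moved with single pools, to -0.03 without olanzapine pool 3, -0.51 without olanzapine pool 2 and -0.29 without olanzapine pool 1. The ratio of Mc3r to Mc4r did not separate the groups (log2 difference -0.35, exact permutation p = 0.6).

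Hcrtr2 and Npy1r, receptors of orexigenic peptides, had values of opposite sign with all pools and negative values without olanzapine pool 1, and the difference between them was not tested. Hcrtr2, the orexin receptor linked to wakefulness (chromosome 9, 76225880 to 76323856, minus strand, 8 exon blocks), had counts of 206, 198 and 151 with standard chow and of 145, 112 and 141 with olanzapine. The groups did not overlap, but the lowest control pool and the highest olanzapine pool were nearly equal, at 3.83 CPM in both cases. The mean was 4.70 ± 0.76 CPM against 3.43 ± 0.53 CPM, and the log2 fold change was -0.46 ± 0.21 (95% interval -0.93 to 0.02, edgeR adjusted p = 0.304). It was of similar size without olanzapine pool 1, at -0.54 (edgeR adjusted p = 0.246), so this difference did not rest on that pool.

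Npy1r, a receptor through which neuropeptide Y stimulates feeding and dampens anxiety (chromosome 8, 66697192 to 66706792, plus strand, 5 exon blocks), was the most even gene of the set in the control group, with 419, 428 and 430 counts. In the olanzapine group it had 784, 348 and 319, that is 1 pool far above the control range and 2 below it. With all pools the log2 fold change was 0.22 ± 0.33 (95% interval -0.55 to 0.98, edgeR adjusted p = 0.787). Without olanzapine pool 1 its direction turned, to -0.35 ± 0.13 (edgeR adjusted p = 0.195), and the remaining groups did not overlap. It was 0.42 and 0.45 without olanzapine pool 2 or 3. The cortical marker sum was highest in the same pool; its part in this result was not tested beyond leaving that pool out.

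Crhr1 and Crhr2, the receptors of stress peptides, lay on opposite sides of their control levels in the same pool. Crhr1, the receptor through which corticotropin-releasing hormone drives the pituitary stress response (chromosome 11, 104132855 to 104175523, plus strand, 13 exon blocks), is also abundant in the neocortex. Its counts were 402, 361 and 230 with standard chow and 726, 309 and 367 with olanzapine, with olanzapine pool 1 at 2.25 times the mean of the other 5. The log2 fold change was 0.53 ± 0.35 (95% interval -0.28 to 1.34, edgeR adjusted p = 0.480), and it was 0.04 (edgeR adjusted p = 0.960) without that pool and 0.33 without control pool 3.

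Crhr2, the receptor of the urocortins (chromosome 6, 55090049 to 55133016, minus strand, 12 exon blocks), had counts of 453, 418 and 516 with standard chow and of 262, 402 and 442 with olanzapine. Here olanzapine pool 1 was the lowest, at 0.609 times the mean of the other 5, olanzapine pool 2 was just under the control range after scaling to library size, and olanzapine pool 3 lay within it. The log2 fold change was -0.31 ± 0.19 (95% interval -0.76 to 0.14, edgeR adjusted p = 0.456) and -0.13 without that pool. The ratio of Crhr2 to Crhr1 gave a log2 difference of -0.79 with an exact permutation p of 0.6.

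The oxytocin and vasopressin receptors overlapped between the groups. Oxtr (chromosome 6, 112473683 to 112489943, minus strand, 3 exon blocks) had counts of 573, 424 and 376 with standard chow and of 307, 323 and 431 with olanzapine, where only the third reached the control range. Its log2 fold change was -0.35 ± 0.20 (95% interval -0.82 to 0.11, edgeR adjusted p = 0.410). Avpr1a, the vasopressin receptor of the septum (chromosome 10, 122448499 to 122453452, plus strand, 2 exon blocks), had counts of 283, 188 and 193 with standard chow and of 168, 187 and 190 with olanzapine. Control pool 1 alone was high and the other 5 were close together, and the log2 fold change was -0.27 ± 0.20 (95% interval -0.73 to 0.20, edgeR adjusted p = 0.543). Both values rested partly on control pool 1: without it that of Oxtr was -0.15 and that of Avpr1a -0.04, while without olanzapine pool 1 they were -0.27 and -0.23. The ratio of Oxtr to Avpr1a gave an exact permutation p of 0.5.

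**Figure D2:**
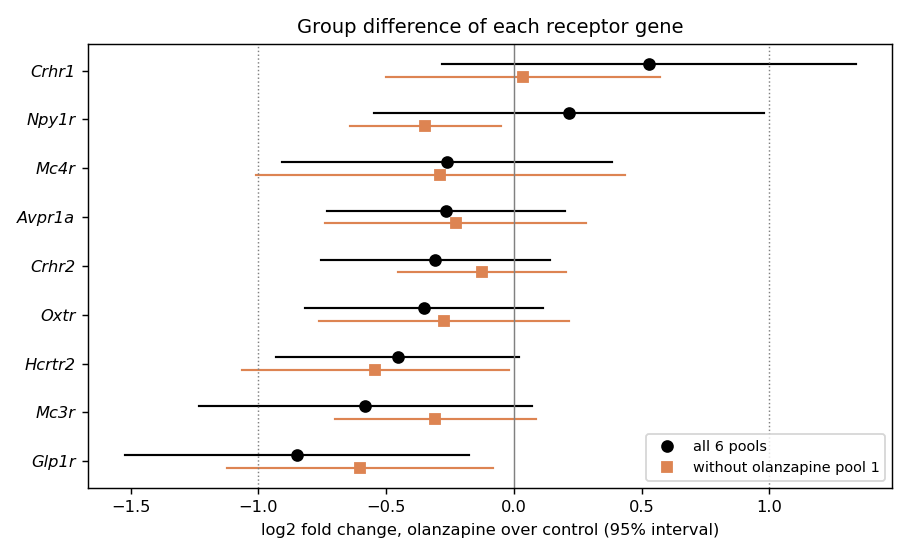
Log2 fold change (horizontal axis, olanzapine over control) of each tested receptor gene from edgeR, with its 95% interval, for all 6 pools (black circles) and without olanzapine pool 1 (orange squares); dotted lines mark a 2-fold change. With all pools only the interval of Glp1r lies wholly below 0, and Npy1r changes side when that pool is left out.

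Olanzapine pool 1 was an extreme for 7 of the 9 tested receptor genes. It was the highest pool for Crhr1 and Npy1r, at 2.25 and 2.09 times the mean of the other 5 pools, and the lowest for Crhr2, Oxtr, Avpr1a, Glp1r and Mc3r. The same pool was the highest for 22.8% and the lowest for 22.3% of all tested genes. When it was left out, 8 of the 9 genes had a negative log2 fold change with a median of -0.29, while 50.3% of all tested genes were negative. In that reduced comparison 4 of the 9, now with Npy1r, were lower without overlap, against 18.2% of all tested genes, and 0 of the 9 were higher, against 19.5%.

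**Figure D3:**
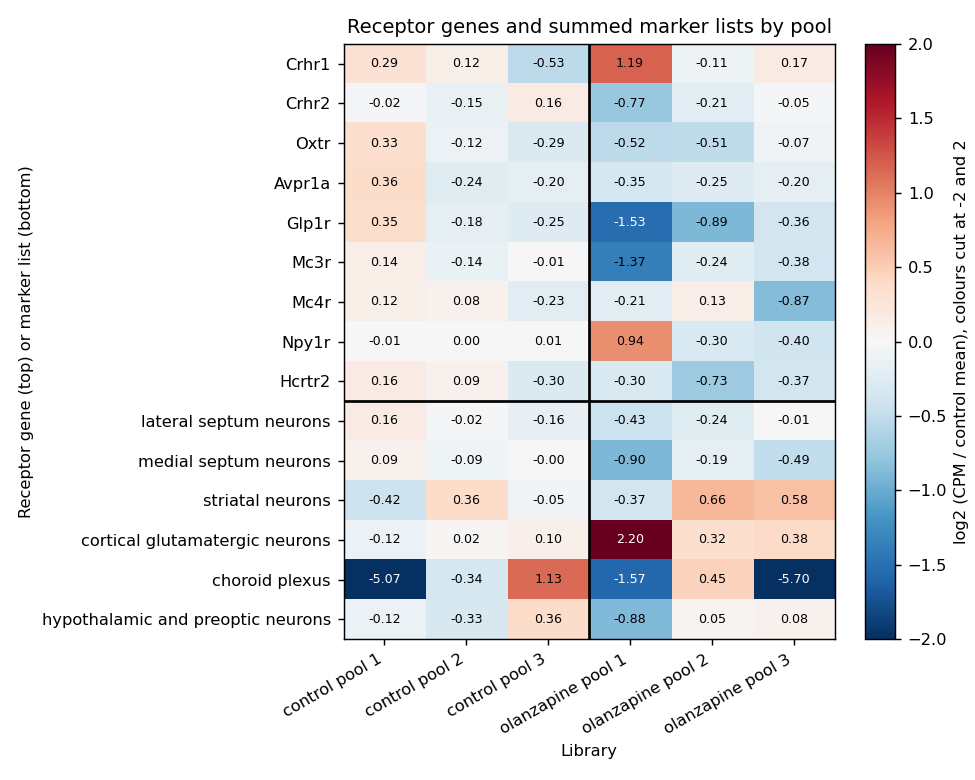
Heatmap of the log2 ratio of each pool to the control mean, from CPM, for the 9 tested receptor genes (upper block) and for 6 summed marker lists (lower block); columns are the pools, and colors end at -2 and 2. In olanzapine pool 1 the cortical list stands at 2.20, Crhr1 at 1.19 and Npy1r at 0.94, while Glp1r stands at -1.53 and Mc3r at -1.37.

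Of 11 ligand genes, 6 had enough counts to be tested and 0 were called, where 1.01% of all tested genes were, with 3 above and 3 below 0. Npy had counts of 824, 1300 and 1042 with standard chow and of 2113, 1264 and 1285 with olanzapine, a log2 fold change of 0.59 (edgeR adjusted p = 0.253). Crh had 194, 267 and 194 counts against 263, 286 and 295, a log2 fold change of 0.39 (edgeR adjusted p = 0.290), and was the only ligand gene whose groups did not overlap once scaled to library size, 1 of 6 being higher where 13.3% of all tested genes were. Avp had a log2 fold change of -0.70 (edgeR adjusted p = 0.374). Gcg, which encodes the precursor of GLP-1 and is expressed in the hindbrain and gut, had 0 counts in all 6 pools. Hcrt, the orexin precursor gene of the lateral hypothalamus, had 216 counts in control pool 3 and 0 to 13 in the others. It was named after its values were seen. With olanzapine pool 1 left out, 7 ligand genes could be tested and 2 were negative, with a median of 0.28. Of the 6 tested with all pools, 3 were then higher without overlap, against 19.5% of all tested genes, and 0 lower, against 18.2%.

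Among sister receptors of the same families, 6 of 14 could be tested and 0 were called, where 1.01% of all tested genes were. Of these 6, 4 were positive and 2 negative, with a median of 0.15, where 49.3% of all tested genes were negative. In 0 of the 6 the olanzapine group was lower without overlap, against 11.0% of all tested genes. With olanzapine pool 1 left out, 3 of 7 were negative and the median was 0.08, where 50.3% of all tested genes were negative. Of the 6 tested with all pools, 1, Glp2r, was then lower without overlap, against 18.2% of all tested genes. In that comparison 0 were higher, against 19.5%. Gipr, the receptor of the incretin GIP, had a log2 fold change of 0.64 (edgeR adjusted p = 0.394). Npy2r, the presynaptic neuropeptide Y receptor, had one of -0.32 (edgeR adjusted p = 0.456). Glp2r had 84 counts in olanzapine pool 1 and 3 to 18 in the others. Avpr2, the kidney vasopressin receptor, had 0 counts in all pools.

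A wider list of 38 receptors for other peptides lay on the same side as the receptor genes described here. Of 35 tested, edgeR called 0 and DESeq2 called 1, Oprm1, where they called 1.01% and 1.72% of all tested genes. Of the 35, 28 had a negative log2 fold change, against 49.3% of all tested genes, and the median was -0.29. The groups did not overlap in 14 of the 35, all lower, against 11.0% of all tested genes. Oprm1, the mu-opioid receptor gene, had counts of 208, 197 and 156 with standard chow and of 87, 69 and 117 with olanzapine (log2 fold change -1.02 ± 0.25, edgeR adjusted p = 0.0854, DESeq2 adjusted p = 0.00639). Calcrl, a receptor component for CGRP and adrenomedullin, had a log2 fold change of -0.51 (edgeR adjusted p = 0.137). Adcyap1r1, the PACAP receptor gene, had one of -0.37 (edgeR adjusted p = 0.143, DESeq2 adjusted p = 0.0352). Npffr1, a receptor gene for RF-amide peptides, was the third of the list to pass in DESeq2 without the fold limit, where 6.69% of all tested genes passed (edgeR adjusted p = 0.154, DESeq2 adjusted p = 0.0237). Without olanzapine pool 1, 28 of 35 were again negative and 21 were lower without overlap, against 18.2%. Cckbr, named after its values were seen, went the way of Crhr1 and Npy1r, with 1855 counts in olanzapine pool 1 and 308 to 414 in the others.

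**Figure D4:**
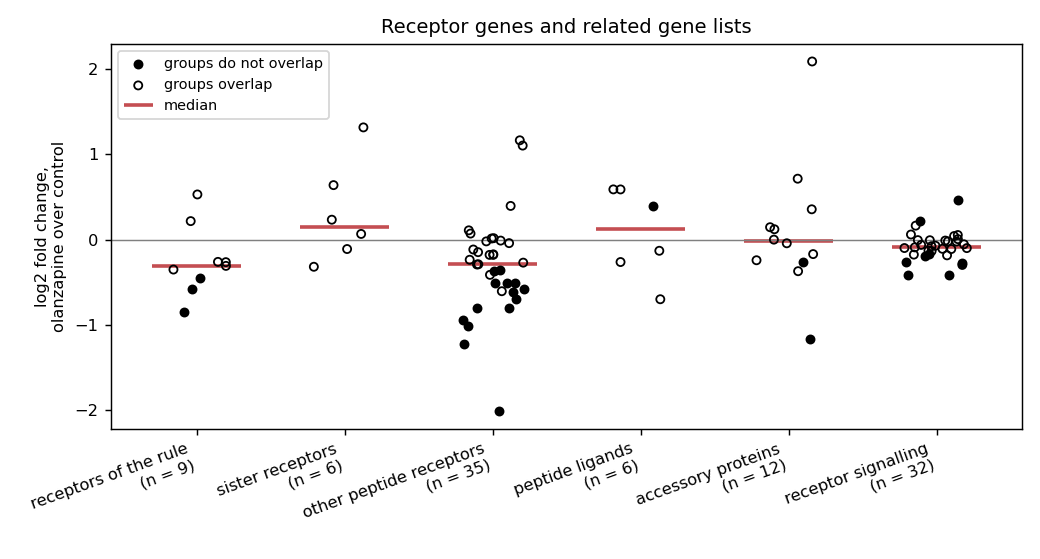
Log2 fold change (vertical axis, olanzapine over control, edgeR) of every tested gene of the receptor set and of 5 related lists; filled points are genes whose groups do not overlap and red lines are medians. The medians are -0.31 for the receptor set and -0.29 for other peptide receptors, and none of these genes passed an adjusted p of 0.05 in edgeR.

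Proteins that process peptides or modify their receptors were tested in 12 of 12 cases; edgeR called 0 and DESeq2 called 1, Lnpep, where they called 1.01% and 1.72% of all tested genes. Of the 12, 7 were negative and 2 were lower without overlap, against 11.0%. When olanzapine pool 1 was left out, 11 of the 12 were negative and 5 were lower without overlap, against 18.2%. Lnpep, the membrane aminopeptidase that degrades oxytocin and vasopressin, had counts of 1684, 1570 and 1249 with standard chow and of 975, 476 and 522 with olanzapine, a log2 fold change of -1.16 ± 0.28 (edgeR adjusted p = 0.0798, DESeq2 adjusted p = 0.000316). Without olanzapine pool 1 it was -1.58 (edgeR adjusted p = 0.00163), which passed the threshold. Sdc3, a syndecan known as a modulator of melanocortin signaling, had a log2 fold change of -0.27 (edgeR adjusted p = 0.132, DESeq2 adjusted p = 0.0420). Atrn, the attractin gene of the agouti pathway, had one of -0.37 (edgeR adjusted p = 0.170), and of -0.49 without olanzapine pool 1 (edgeR adjusted p = 0.0433). In that reduced comparison 3 of the 93 tested genes of all related lists passed at any fold, against 2.87% of all tested genes. They were Lnpep, Atrn and 1 gene of the signaling list described next.

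Of the G protein, cyclase, phospholipase, kinase and arrestin genes behind these receptors, 32 were tested. Both edgeR and DESeq2 with the fold limit called 0 of them, where they called 1.01% and 1.72% of all tested genes. The log2 fold change was negative in 25 of them with a median of -0.08, where 49.3% of all tested genes were negative. The groups did not overlap in 6 that were lower and 2 that were higher, against 11.0% and 13.3% of all tested genes. In the other 5 pools, 13 of the 32 were lower without overlap, against 18.2%, and 2 were higher, against 19.5%. Plcb4, a Gq-activated phospholipase C gene, had one of -0.41 (edgeR adjusted p = 0.0737, DESeq2 adjusted p = 0.00653). Grk5, a kinase gene of receptor desensitization, had -0.42 (edgeR adjusted p = 0.180), and the G protein subunit gene Gng2 had -0.28 (edgeR adjusted p = 0.183). Adcy1, an adenylyl cyclase gene named after its values were seen, turned with olanzapine pool 1. Its log2 fold change was 0.16 with that pool (edgeR adjusted p = 0.891) and -0.74 without it (edgeR adjusted p = 0.00325).

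The genes whose levels followed each receptor most closely over the 6 pools were taken from 13168 genes with a mean of at least 100 counts. These correlations of log2 CPM are descriptions over 6 libraries that share the same dissections. Glp1r was most like Zic1, at r = 0.999, and AI597479. Mc3r was most like Tpmt and Slc38a10, Hcrtr2 like Epg5 and Rbsn, and Mc4r like Relt and Drd5. Crhr1 was most like Adgrb1 and Unc13a, Npy1r like Olfm1 and Ldb2, Crhr2 like Rdx and Stk33, Oxtr like Specc1 and Klhl9, and Avpr1a like Frs3 and Tmem68. The first likeness had r between 0.982 and 0.999 for the 9 genes.

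Zic1, which encodes a zinc finger factor of the septum and is itself in the LS list, ranged over 335 to 434 CPM with standard chow and 203 to 326 CPM with olanzapine. Glp1r varied more steeply over the pools than Zic1. For each 1000 counts of Zic1 there were 38.6, 33.8 and 33.0 counts of Glp1r with standard chow and 22.4, 26.4 and 31.4 with olanzapine. Zic1 was picked in these same pools as the gene most like Glp1r, and this ratio ranked the pools as Zic1 did. That its ranges did not overlap therefore restates the separation of Glp1r and Zic1 themselves and shows no difference beyond Zic1.

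**Figure D5:**
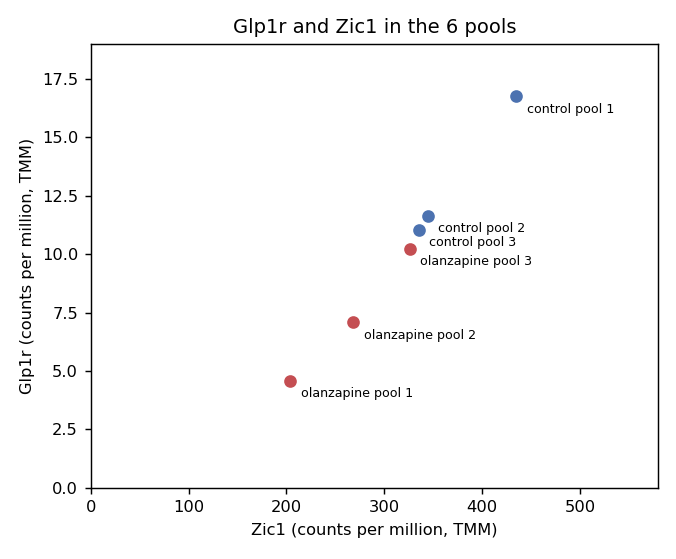
Glp1r (vertical axis) against Zic1 (horizontal axis), both in CPM after TMM normalization, with 1 point per pool (blue control, red olanzapine). The 6 pools fall along a line, with olanzapine pool 1 lowest at 4.56 and 203 CPM and control pool 1 highest at 16.8 and 434 CPM.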

How the data were processed

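The labels name TRIzol extraction and the VAHTS Universal V6 kit. Per the submitters' processing notes, reads were handled with fastp, HISAT2 and HTSeq on mm10, and the authors deposited raw counts per gene and FPKM. Strand setting, annotation and versions are not given in the sources used here. Antisense genes overlap Avpr1a, Glp1r and Hcrtr2 in GENCODE with 0 shared exon bases, so counts over these exons would not mix their exon reads. Whether the gene models behind the deposited counts share exon bases is not known. The deposited FPKM equaled counts divided by 1 length per gene and by the library total in all 23678 genes compared (tolerance 0.001), so they are no independent measurement.

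Counts were filtered with filterByExpr (minimum 10, total 15), normalized with TMM and tested with edgeR 4.0.16 in R 4.3.3 (quasi-likelihood, group as the only term), with Benjamini-Hochberg adjustment over 17255 genes. CPM are TMM-scaled. Genes were called where the adjusted p was under 0.05 and the fold change above 2 or below 0.5. The SE is the log2 fold change divided by the square root of F. The script was tested on simulated data. Alternatives used DESeq2 1.42.0, limma 3.58.1 on FPKM (log2 scale, pseudocount 1 or 0.1, genes averaging 0.1 FPKM or more, or unfiltered), other normalizations and filters, a replicate block and each pool left out. Groups came from the labels. The receptor genes, the 5 related lists, the 12 marker lists and the tests were chosen with earlier results of these data known. Named genes were all receptors, from each related list the called genes or otherwise the 3 with the smallest p, called marker genes, and the 2 genes most like each receptor. Slc17a7, Slc17a6, Nrgn, Zic1, Gcg, Hcrt, Avpr2, Npffr1, Cckbr and Adcy1 were named beside this rule. The p-values measure the spread between these pools only, part of which may be technical.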

Additional observations from a re-analysis of the deposited data

How the results depend on the processing

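With all pools in the fit, each receptor gene kept the sign of its log2 fold change under 9 alternatives of test, normalization, filter, block and value scale (81 values, 0 reversed), and 1 value passed an adjusted p of 0.05 (Glp1r, DESeq2). Leaving out 1 pool moved the median of the receptor genes between -0.46 and -0.20 and turned 1 gene, Npy1r (-0.35 to 0.45; -0.35 without olanzapine pool 1). The count of called receptor genes was 0 with a fold limit in every setting. With no fold limit it was 1, Glp1r, at an unadjusted p and 1, again Glp1r, in DESeq2. For all genes, 174 were called, against 297 with DESeq2, 86 with the replicate block, 65 with limma on log2(FPKM + 1), 60 with that test unfiltered, 401 with no fold limit, 514 at an unadjusted p, 3035 at an unadjusted p with no fold limit, and 85 to 176 with 1 pool left out. Of the related lists 0 of 91 tested genes were called, against 2 of 91 with DESeq2 and 1 of 105 with no count filter. The count was 4 of 91 at an unadjusted p and 23 of 91 at an unadjusted p with no fold limit. With 1 pool left out it was 0 to 1 of 92 to 94. The counts of all genes in the main, DESeq2 and unadjusted settings were out of 17255, and 181 of 26020 were called with no count filter. The cause of these shifts was not tested. Same-numbered pools did not deviate together (r = -0.003, 0.062 and -0.255), so numbers name the pools and do not pair them, and 0 receptor genes were called with the replicate block. With 3 pools per group, the 95% intervals of 8 of the 9 receptor genes crossed 0, Glp1r being the exception.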
